A study of Mus musculus with 12 samples.

Results

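The comparison concerns 4 flowthrough libraries, that is, RNA of the brain cells that did not bind the astrocyte beads. They were chosen by their labels, KO flowthrough (mice 132 and 60) against WT flowthrough (mice 56 and 64), and are 4 of the 12 libraries of the series; the other 8 are captured astrocytes, including those of the same 4 mice. All mice were on a C57BL\6 background and carried Bmal fl/fl alleles with the ALDH1L1-CreERT2 line in the strain label, so that loxP sites flank part of Bmal1 (Arntl in the files). KO mice were Cre-positive and WT mice Cre-negative. CreERT2 is a recombinase that enters the nucleus when tamoxifen is present, and the Aldh1l1 promoter directs it to astrocytes. Every mouse, KO or WT, had been gavaged with tamoxifen (daily dose 2 mg, 5 days) when 2 months old and was 20 months old at collection. Dissociated brain cells were passed over magnetic beads against ACSA-2, an antigen of the astrocyte surface. Each flowthrough library is 1 mouse, so that KO and WT are compared with 2 mice each, and the deletion is directed at a cell type that the beads were meant to remove.

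BMAL1 pairs with CLOCK or its paralog NPAS2 and activates genes that carry the E-box sequence, among them the period and cryptochrome repressors that close the daily feedback loop and the nuclear receptors REV-ERB alpha and beta (Nr1d1 and Nr1d2). The REV-ERB proteins in turn repress Arntl, Npas2 and other genes that carry ROR elements. In the brain, loss of astrocytic BMAL1 is known to be followed by GFAP expression and other changes of astrocyte state.

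The 4 flowthrough libraries held 45279488 to 51551942 counts, and 3 counts, the floor for a gene at 0, corresponded to 0.0582 to 0.0663 CPM (counts scaled to the library total). Such limits cover counting error only. KO 132 was nearer to both WT libraries than to KO 60: the median absolute log2 difference per gene was 0.398 between the KO libraries, 0.30 between the WT libraries, 0.294 between KO 132 and WT 56 and 0.306 between KO 132 and WT 64. The WT 56 library held pituitary transcripts, with growth hormone (Gh) at 22302 CPM and at most 0.018 CPM in the KO flowthrough, so the count of changed genes is also given without that mouse. Ddx3y on chromosome Y was at 72.9 to 89.6 CPM and Xist at 0.038 to 0.198 CPM, and no library stood apart by these genes. Levels below are TMM-scaled CPM, KO 132 and KO 60 before WT 56 and WT 64, and differences are log2 fold changes of KO minus WT with their standard errors.

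**Figure D1:**
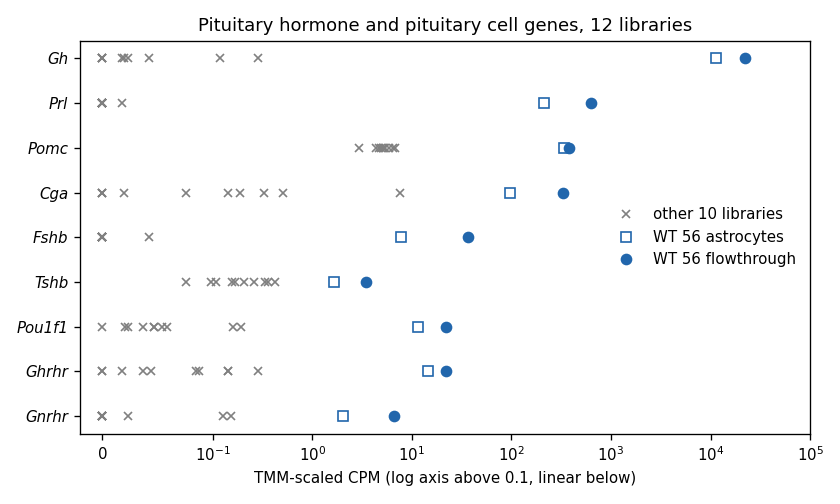
TMM-scaled CPM (log axis above 0.1, linear below) of 9 pituitary genes in the 12 libraries; filled circles are WT 56 flowthrough, open squares WT 56 astrocytes and grey crosses the other 10 libraries. Gh lies at 22302 CPM in WT 56 flowthrough and at 11224 CPM in its astrocytes, and at 0.284 CPM or less elsewhere.

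Of all genes tested, 1 passed the test in flowthrough. Cxcl5, a chemokine that attracts neutrophils through the receptor CXCR2, rose in the KO libraries: it was at 6.33 CPM in KO 132 and 12.3 CPM in KO 60, against 0.362 CPM in WT 56 and 0.475 CPM in WT 64 (9.34 ± 4.25 against 0.418 ± 0.0798, SD, n = 2 each). Both KO libraries lay above both WT libraries, which rested on 20 and 24 counts, while the KO libraries held 351 and 648. The log2 difference was 4.47 ± 0.37 (edgeR quasi-likelihood test over 12 libraries, adjusted p = 0.00136). Of 20997 genes tested, 1 was called higher, 0.00476% of them, and 0 were called lower; 973 genes, 4.63%, had an unadjusted p under 0.05, and DESeq2 called 23 of the 18008 genes to which it gave an adjusted p (0.128%), 19 higher (0.106%) and 4 lower (0.0222%). The call of Cxcl5 was lost under several alternatives: its adjusted p was 0.557 in the edgeR fit of the 4 flowthrough libraries alone, 0.119 with the 8 libraries of these 4 mice, 0.10 without WT 56 and 0.0589 without WT 64, with log2 differences between 3.91 and 4.88 under all 16 alternatives. With 2 against 2 libraries, an exact two-sided permutation test cannot give a p below 0.333.

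Cxcl5 spans 4 exons at chr5:90759299-90761625 on the plus strand (GRCm38). In captured astrocytes of the same mice it was at 42.0 CPM in KO 132, 38.8 CPM in KO 60, 1.44 CPM in WT 56 and 2.11 CPM in WT 64, so the KO level was higher in both fractions. The flowthrough level of Cxcl5 was 15.1%, 31.8%, 25.1% and 22.5% of the astrocyte level of the same mouse. The 30 astrocyte marker genes had medians of 23.1%, 40.9%, 23.7% and 19.9% in the same order. Cxcl5 lay below that median in both KO mice, in KO 60 just under the lowest of the 30 markers (32.2%), and slightly above it in both WT mice. The source of Cxcl5 RNA in flowthrough was not tested. Per 1000 CPM of summed astrocyte markers, Cxcl5 was at 0.749 and 0.789 CPM in KO flowthrough and at 0.035 and 0.064 CPM in WT flowthrough. The difference of the KO minus WT differences, flowthrough minus astrocytes, was 0.01 (interaction test of edgeR, adjusted p = 1). Standard errors were derived from the test statistic, which is unreliable this near 0, so none is given here. In the 4 astrocyte libraries of mice with no flowthrough library the log2 difference was 4.43.

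The other genes of the CXC family did not share this pattern in flowthrough at the tested threshold. Of 21 tested CXC chemokines and receptors, 9 had an estimate above 0 and 12 below 0, with a median of -0.10 (-0.39 without KO 132, -0.03 without KO 60, -0.24 without WT 56, 0.05 without WT 64, and 0.19 in limma-voom with mouse as a replicate block) against 0.04 over all genes tested. Cxcl5 was the sole member called, with edgeR and with DESeq2, which called 0.00476% and 0.128% of all genes. Cxcl12, a chemokine made by stromal and vascular cells, was at 129 and 103 CPM in KO and 63.1 and 66.5 CPM in WT (0.84 ± 0.56, adjusted p = 1 with edgeR). Ppbp, a platelet chemokine, was at 0.361 and 0.190 CPM in KO and at 2.61 and 4.12 CPM in WT (-3.59 ± 2.43). Cxcl1 was at 2.31 and 1.54 CPM against 2.66 and 6.67 CPM, and Cxcl2 at 24.4 and 16.1 CPM against 18.2 and 24.02 CPM; both attract neutrophils too. Cxcr2, their shared receptor, was at 18.6 and 12.4 CPM in KO and 12.9 and 53.0 CPM in WT, where WT 64 alone stood high. WT 64 also had the highest Ackr1, an atypical chemokine receptor of venules and red cells, at 153 CPM against 6.27 to 12.7 CPM in the other 3.

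The 11 further genes with the smallest unadjusted p among those higher in KO, chosen for groups that do not overlap, did not pass with edgeR, although DESeq2 called each of them. Over all genes, 54.4% had an estimate above 0, the groups did not overlap in 33.6%, with both KO libraries above both WT libraries in 17.1% and below them in 16.5%, and the unadjusted p was under 0.05 in 3.29% and 1.35%. Hebp2, a heme-binding protein, was at 17.3 and 42.0 CPM in KO and 6.30 and 4.99 CPM in WT (2.39 ± 0.42, edgeR adjusted p = 0.445). Spon2, a secreted matrix protein, was at 11.8 and 22.97 CPM in KO and 1.21 and 0.178 CPM in WT (4.62 ± 0.88, edgeR adjusted p = 0.611); WT 64 held 9 counts of it. Egfl6, a matrix protein with EGF-like repeats, was at 7.39 and 22.3 CPM in KO and 2.46 and 1.56 CPM in WT (2.88 ± 0.47, edgeR adjusted p = 0.395). In all of these 3 genes KO 60 was above KO 132.

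Slc20a2, the phosphate transporter PiT-2, had close replicates in WT, at 18.3 and 17.5 CPM, and was at 37.6 and 56.3 CPM in KO (1.39 ± 0.23, edgeR adjusted p = 0.395). Car4, a carbonic anhydrase anchored to the surface of brain capillaries, was at 112 and 92.6 CPM in KO and 47.4 and 47.3 CPM in WT (1.12 ± 0.21, edgeR adjusted p = 0.560). Lrrn3, a neuronal membrane protein with leucine-rich repeats, was at 17.3 and 13.7 CPM in KO and 7.31 and 7.34 CPM in WT (1.08 ± 0.19, edgeR adjusted p = 0.445). In Car4 and Lrrn3, unlike the previous 3 genes, KO 132 was the higher KO library. The remaining 5 were B3galt2, a galactosyltransferase (1.55), the clock gene Npas2 (2.24), Mau2, a cohesin loader (0.73), Pla2g3, a secreted phospholipase (1.85), and the LIM homeobox factor Lhx9 (1.53), the numbers being log2 differences. Without KO 132, edgeR called 5 genes, Cxcl5, Egfl6, B3galt2, Hebp2 and the immunoglobulin segment Ighv1-59, all higher.

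**Figure D2:**
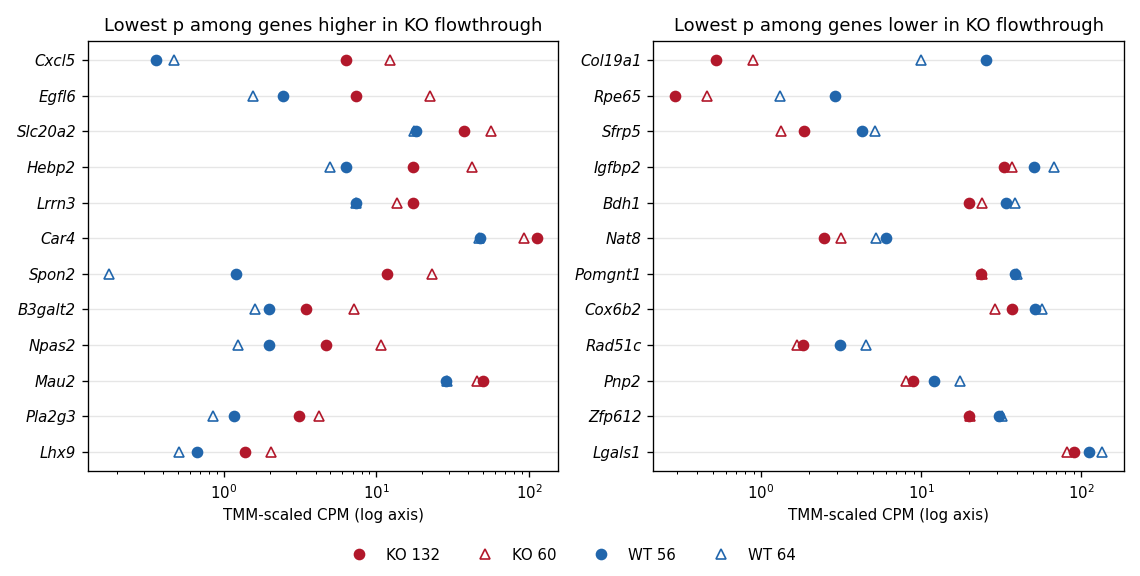
TMM-scaled CPM (log axis) of the 12 genes with the smallest p higher in KO flowthrough (left) and the 12 lower (right) in each of the 4 libraries; red marks KO and blue WT, circles mice 132 and 56, triangles mice 60 and 64. Genes were chosen for groups that do not overlap; Cxcl5 alone passed adjustment, with KO at 6.33 and 12.3 CPM and WT at 0.362 and 0.475 CPM.

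The 12 genes at the other end did not pass with edgeR. Col19a1, a collagen that associates with fibrils, was at 0.523 and 0.895 CPM in KO and 25.4 and 10.03 CPM in WT (-4.64 ± 0.71, edgeR adjusted p = 0.380, DESeq2 adjusted p = 4.21e-09). The WT values lay apart from each other as well, and both were above KO. Rpe65, the retinoid isomerase of the visual cycle, was at 0.288 and 0.457 CPM in KO and 2.90 and 1.31 CPM in WT (-2.49 ± 0.55, edgeR adjusted p = 0.982). Sfrp5, a secreted antagonist of WNT ligands, was at 1.86 and 1.33 CPM in KO and 4.29 and 5.18 CPM in WT (-1.57 ± 0.36, edgeR adjusted p = 1). Igfbp2, which binds insulin-like growth factors, was at 33.2 and 36.9 CPM in KO and 50.5 and 67.5 CPM in WT (-0.75 ± 0.17, edgeR adjusted p = 1). DESeq2 called these 4 genes lower and no others. The other 8 differed by -0.53 to -1.13 on the log2 scale: Bdh1, a ketone body enzyme of mitochondria, Nat8, an acetyltransferase, Pomgnt1, which extends O-mannose glycans, Cox6b2, a subunit of cytochrome oxidase, Rad51c, a recombination protein, Pnp2, a purine phosphorylase, the zinc finger protein Zfp612 and the galectin Lgals1.

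Astrocyte libraries of the 4 mice without flowthrough give values of these 24 genes in other animals. The genes were chosen by p in the fit of all 12 libraries, whose pooled spread includes these 4. The p-values below are therefore not independent of that choice. Of the 12 higher genes, 11 had an estimate above 0 there, as 51.5% of all genes did, and 9 an unadjusted p under 0.05 in that direction, which 8.26% of 18761 genes had. They were Cxcl5, Egfl6, Slc20a2, Hebp2, Car4, Spon2, B3galt2, Mau2 and Pla2g3; Lrrn3 was at -0.13. Of the 12 lower genes, 10 had an estimate below 0, as 48.5% of all genes did, and 3 (Rpe65, Sfrp5 and Nat8) an unadjusted p under 0.05, against 5.64% of genes. In that fit of 2 against 2 libraries, edgeR called 0 genes.

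The genes differed in how their flowthrough level compared with the astrocytes of the same mouse. In every mouse 9 of the 24 stayed within the span of the astrocyte markers over the 4 mice, 12.0% to 73.4%: Cxcl5, Egfl6, Slc20a2, B3galt2, Npas2, Pla2g3, Lhx9, Sfrp5 and Nat8. Against the span of each mouse on its own 6 of these stayed within it, without Cxcl5, Lhx9 and Sfrp5. The share of all genes within these spans was not determined, so the counts do not set these genes apart. Lrrn3 was at 194% and 156% of the astrocyte level in KO and at 89.3% and 80.5% in WT. Car4 was at 319% and 302% in KO and 202% and 186% in WT. Lgals1, Pnp2, Cox6b2, Pomgnt1 and Igfbp2 were above 100% in all 4 mice. Spon2 was at 9.65% and 18.8% in KO and at 107% and 66.7% in WT, where its level was low in both fractions.

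For 2 of the 24 genes, Col19a1 and Lrrn3, the astrocyte values of the same mice overlapped between KO and WT and DESeq2 called the difference between the fractions. Col19a1 was at 0.824 and 1.59 CPM in KO astrocytes and at 0.815 and 1.29 CPM in WT astrocytes of the same mice, so its WT flowthrough stood at 3113% and 777% of the astrocyte level. The difference between fractions was -4.08 ± 0.80 for Col19a1 and 1.13 ± 0.23 for Lrrn3 (edgeR interaction test, adjusted p = 0.934 each). The interaction test called 0 of 20997 genes, with 828 (3.94%) at an unadjusted p under 0.05, and DESeq2 called 8, Col19a1, Lrrn3, Oas2, Arhgef3 and Mfsd2a among them. Lrrn3 in astrocytes was at 8.92 and 8.74 CPM in KO and 8.19 and 9.12 CPM in WT of these mice.

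**Figure D3:**
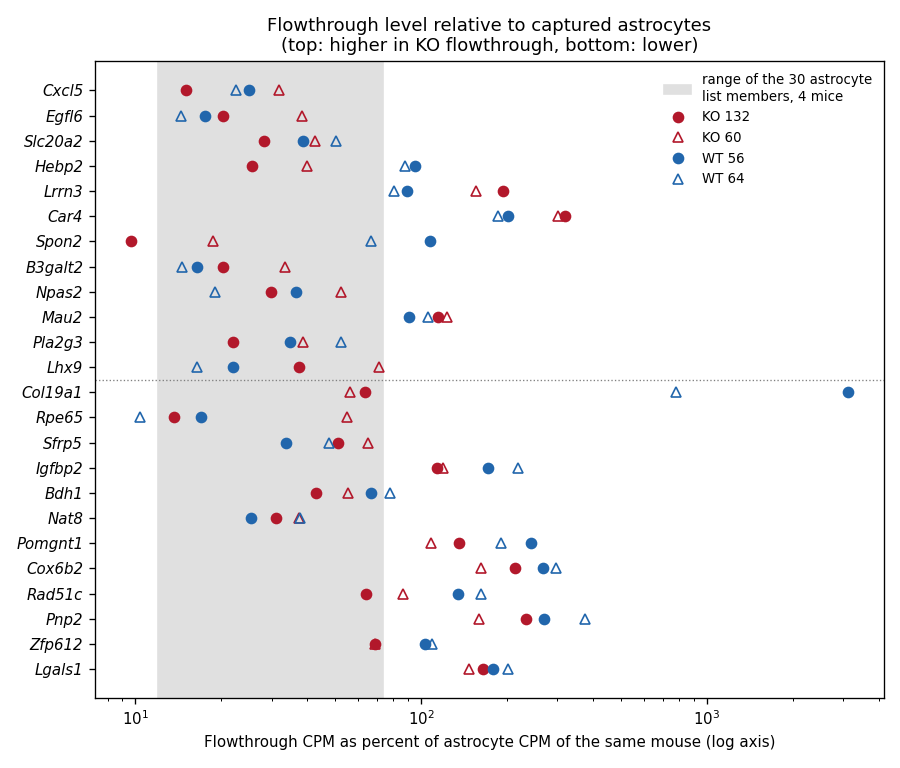
Flowthrough CPM as percent of astrocyte CPM of the same mouse (log axis) for the 24 genes, 1 point per mouse; red marks KO and blue WT, and the grey band spans the 30 astrocyte markers in the 4 mice, 12.0% to 73.4%. Cxcl5 lies within the band in all 4 mice, while Col19a1 in WT lies at 3113% and 777%.

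The genes with the smallest p in captured KO against WT astrocytes show which of them also differed in flowthrough. Besides Cxcl5, Hebp2, Spon2, Slc20a2 and Rpe65, they were Oas2, Gstm7, Chil1, Esr1 and Arhgef3. Oas2, an interferon-induced antiviral enzyme, was at 9.61 and 10.97 CPM in KO flowthrough and 3.84 and 6.75 CPM in WT (0.96 ± 0.30, edgeR adjusted p = 1), against a difference of 2.70 in astrocytes. Chil1, a chitinase-like secreted protein, was at 52.6 and 35.1 CPM in KO and 56.7 and 98.3 CPM in WT (-0.82 ± 0.28), and at -1.52 in astrocytes. Arhgef3, a guanine nucleotide exchange factor, was at 42.5 and 35.7 CPM in KO and 31.2 and 37.6 CPM in WT (0.19 ± 0.20), so its flowthrough groups overlapped, and at 1.4 in astrocytes. Esr1, the estrogen receptor alpha, was at 8.53 and 8.93 CPM against 10.99 and 3.38 CPM (0.28 ± 0.44, and -0.33 without WT 64), again with overlap. Gstm7 was at 38.6 and 59.1 CPM in KO and 34.0 and 20.9 CPM in WT (0.83 ± 0.23), and at 1.07 in astrocytes. Fabp7, a fatty acid binding protein of astrocytes and radial glia, is not among these 10 genes. It was at 684 and 1180 CPM in KO and 278 and 60.8 CPM in WT (2.46 ± 0.62, edgeR adjusted p = 1), and DESeq2 called it higher.

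Of 23 clock genes, 0 passed with edgeR in flowthrough, and DESeq2 called 1, Npas2, higher, against 0.106% of all genes. Arntl itself, at 5.12 and 4.97 CPM in KO and 5.28 and 4.29 CPM in WT (284 and 261 counts against 292 and 217), overlapped between the groups (0.08 ± 0.26). These counts cover all exons of Arntl. No source used here names the exons between the loxP sites, so the gene total does not check the deletion. Npas2 stood highest by its difference, at 4.65 and 10.7 CPM in KO and 1.99 and 1.25 CPM in WT (2.24 ± 0.47, edgeR adjusted p = 0.971). Clock was at 18.1 and 21.5 CPM in KO and 14.7 and 10.9 CPM in WT (0.63 ± 0.25). Nr1d2 (REV-ERB beta) was the other way, at 14.4 and 11.4 CPM in KO and 19.7 and 18.4 CPM in WT (-0.56 ± 0.20). Nr1d1 (REV-ERB alpha), at 95.4 and 68.6 CPM against 91.3 and 71.0 CPM, and the output factor Dbp, at 9.43 and 6.93 CPM against 10.8 and 7.87 CPM, overlapped.

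By list, 7 of 8 clock activators and REV-ERB repressed genes had an estimate above 0, with a median of 0.58, and 3 had both KO libraries above both WT libraries, against 17.1% of all genes. That median was 0.14 without KO 60, the library with the highest Npas2, Rora and Rorb. Of 15 genes activated through E-boxes, 6 were above 0 and 9 below 0, with a median of -0.03 (-0.24 without KO 132, 0.07 without KO 60, 0.14 without WT 64, and 0.08 in limma-voom with the replicate block). The repressors Per1 (-0.03), Per2 (-0.20), Per3 (-0.24), Cry1 (0.32) and Cry2 (0.32) had log2 differences smaller than their standard errors of 0.24 to 0.42 or little above them.

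**Figure D4:**
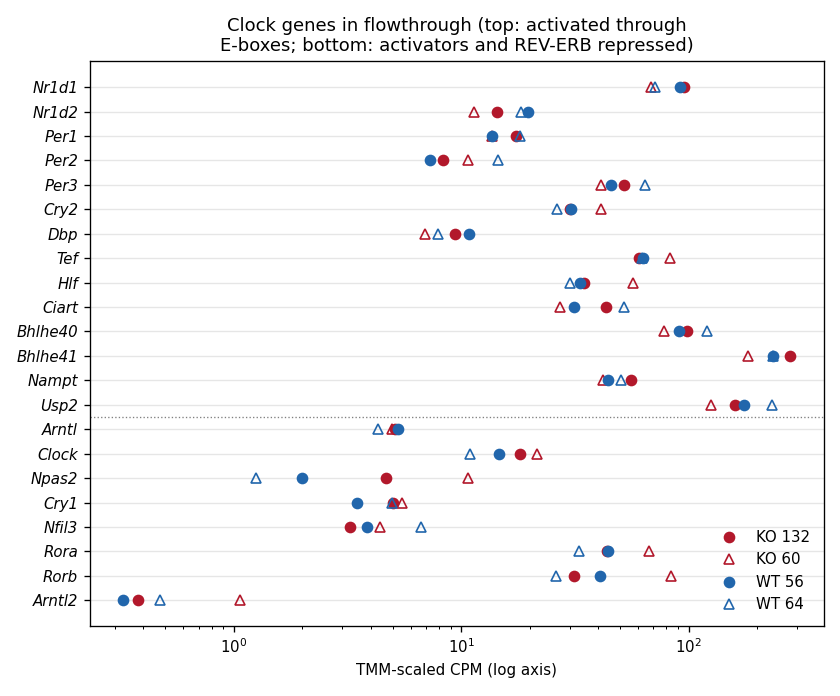
TMM-scaled CPM (log axis) of clock genes in the 4 flowthrough libraries; red marks KO, blue WT, circles mice 132 and 56, triangles mice 60 and 64, and the dotted line separates E-box activated genes (top) from activators and REV-ERB repressed genes (bottom). Arntl overlaps between KO and WT, while Npas2 lies at 4.65 and 10.7 CPM in KO and 1.99 and 1.25 CPM in WT.

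The 250 bases before the gene start (RefSeq, GRCm38.p6) were searched, with the 50 bases after it, for the E-box CACGTG, which reads the same on both strands, and for the ROR hexamer AGGTCA on both strands; the motifs can overlap by 2 bases. An E-box lay in 7.15% of 32851 promoter windows and a ROR hexamer in 16.3%. Of the 12 higher genes 7 had a window and 1, B3galt2, an E-box, 26 bases before the start; of the 12 lower genes 9 had a window and 1, Igfbp2, an E-box. Neither group had a window with the ROR hexamer. Among clock genes with a window, 3 of 12 E-box activated genes had it, and 1 of 8 activators and REV-ERB repressed genes. The Arntl and Npas2 windows held neither motif. Of 12 E-box activated clock genes with a window 4 had the E-box, and Ciart, a repressor of the clock, had 3. The upstream parts of these windows are shown for the gene of each group that carries the motif, with Ciart for comparison and the E-box in capitals; B3galt2 lies at chr1:143640447-143640696 on the plus strand, Igfbp2 at chr1:72824230-72824479 on the plus strand and Ciart at chr3:95882229-95882478 on the minus strand.
B3galt2: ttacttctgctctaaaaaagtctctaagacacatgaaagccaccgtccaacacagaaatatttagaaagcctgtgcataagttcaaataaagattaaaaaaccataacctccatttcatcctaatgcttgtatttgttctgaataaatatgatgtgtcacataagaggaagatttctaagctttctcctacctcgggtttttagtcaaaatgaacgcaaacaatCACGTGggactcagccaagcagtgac
Igfbp2: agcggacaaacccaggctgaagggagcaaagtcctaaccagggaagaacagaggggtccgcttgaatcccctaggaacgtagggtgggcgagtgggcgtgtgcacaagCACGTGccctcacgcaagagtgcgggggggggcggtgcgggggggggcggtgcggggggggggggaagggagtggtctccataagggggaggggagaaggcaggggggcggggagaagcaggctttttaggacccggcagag
Ciart: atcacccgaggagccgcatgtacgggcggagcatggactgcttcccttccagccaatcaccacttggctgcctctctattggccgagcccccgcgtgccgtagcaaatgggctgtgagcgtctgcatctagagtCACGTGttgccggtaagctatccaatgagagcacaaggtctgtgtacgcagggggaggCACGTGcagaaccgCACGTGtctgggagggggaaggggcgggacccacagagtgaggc
Ciart, with its 3 E-boxes, was at 43.6 and 27.1 CPM in KO flowthrough and 31.3 and 52.0 CPM in WT (-0.24 ± 0.52), with overlap. B3galt2 was at 3.44 and 7.11 CPM in KO and 1.99 and 1.60 CPM in WT, without overlap. A match of letters is a description of the window and not of binding.

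The flowthrough held many cell types, as its markers show. Homeostatic microglia markers, such as Tmem119, summed to 16297 to 25655 CPM in flowthrough and to 855 to 4059 CPM in captured astrocytes. Choroid plexus epithelium, which makes cerebrospinal fluid, reached 19975 to 40982 CPM, mostly Ttr, and mature oligodendrocytes 12768 to 30129 CPM. Astrocyte markers were still present at 7376 to 15653 CPM, against 18963 to 37485 CPM in captured astrocytes. No defining marker of the 20 cell type lists was at 0 in any flowthrough library. In such bulk RNA, fewer cells of a type and less RNA per cell cannot be told apart.

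No member of a cell type list passed with edgeR, and DESeq2 called 1 of 305, Igfbp2 of the fibroblast list, lower. Among all genes given an adjusted p, DESeq2 called 0.0222% lower. Choroid plexus markers summed to 24132 and 19975 CPM in KO and 34928 and 40982 CPM in WT: 13 of 14 had an estimate below 0, 11 had groups apart (16.5% of all genes did in that direction), and the median was -0.67, between -0.86 and -0.50 under the alternatives. Their examples were Ttr, the thyroxine carrier, at 22745 and 18870 CPM in KO and 33045 and 39299 CPM in WT, and the chloride channel Clic6 at 48.1 and 42.5 CPM against 75.5 and 87.7 CPM. Ependymal markers, of the ciliated lining of the ventricles, summed to 741 and 456 CPM in KO and 1057 and 1136 CPM in WT, with all 14 below 0, all 14 groups apart and a median of -0.84. That median was -0.55 without KO 60 and -0.27 in limma-voom with mouse as a replicate block. Foxj1, the factor of motile cilia, was at 8.0 and 6.74 CPM in KO and 16.5 and 15.7 CPM in WT (-1.13 ± 0.85, edgeR adjusted p = 1). Members of 1 list come from the same cells and are not independent.

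Erythroid markers had the median farthest from 0 of the 20 lists, -2.25, with sums of 2277 and 2177 CPM in KO and 6597 and 14399 CPM in WT. Their median was -1.49 without WT 64 and -0.94 with the replicate block. The adult beta globin Hbb-bs was at 959 and 950 CPM in KO and 2963 and 6179 CPM in WT (-2.26 ± 1.71, edgeR adjusted p = 1). The sums of neutrophil markers did not separate by label: they were 7201 and 3319 CPM in KO and 3630 and 11775 CPM in WT, so WT 64 and KO 132 were high and KO 60 and WT 56 low. All 16 had an estimate below 0, with a median of -0.56, and 1 had groups apart in that direction, against 16.5% of all genes. That median was 0.51 without WT 64, -1.18 without KO 132, -1.17 without WT 56 and -0.13 without KO 60. Endothelial markers summed to 4436 and 3572 CPM in KO and 2776 and 3704 CPM in WT, so WT 64 was above KO 60. They were above 0 in 18 of 18, with a median of 0.51 and 9 groups apart against 17.1% of all genes. That median was 0.30 without KO 132, 0.26 without WT 56 and 0.82 without WT 64. Cldn5, a tight junction protein among the 9 with groups apart, was at 92.3 and 94.6 CPM in KO and 49.95 and 65.9 CPM in WT. Pecam1 overlapped, at 86.6 and 71.4 CPM in KO and 45.2 and 72.4 CPM in WT. Car4 lies on brain capillaries. Its groups were apart, as those of Cldn5 were, while the endothelial sums overlapped between the labels. The part of vessel cells in the Car4 difference was not tested.

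Several lists with a positive median were high in KO 60 alone. Astrocyte markers summed to 8450 and 15653 CPM in KO and 10342 and 7376 CPM in WT, with 27 of 30 above 0 and a median of 0.48 that became -0.02 without KO 60, 0.91 without KO 132, 0.75 without WT 56 and 0.26 without WT 64. Neuronal markers summed to 1197 and 3330 CPM in KO and 1406 and 828 CPM in WT, with a median of 0.70, which was 0.04 without KO 60, 1.17 without KO 132 and 0.42 with the replicate block. Gfap, the intermediate filament of astrocytes, was at 337 and 1385 CPM in KO and 257 and 129 CPM in WT (2.15 ± 0.68, edgeR adjusted p = 1). Mitochondrially encoded genes took 7.95% and 12.7% of counts in KO and 8.20% and 4.66% in WT, and the 13 of them had a median of 0.67, which was 0.31 without KO 60 or without WT 64, 1.17 without WT 56 and 0.43 with the replicate block. Hebp2, Spon2, Egfl6, Npas2, B3galt2 and Fabp7 were all highest in KO 60, the library with the most astrocyte marker RNA. Per 1000 CPM of astrocyte markers, Hebp2 was at 2.05 and 2.69 CPM in KO and 0.609 and 0.676 CPM in WT, and Npas2 at 0.550 and 0.684 CPM against 0.193 and 0.169 CPM. For Hebp2 and Npas2 both KO libraries remained above both WT libraries on that scale. The part of astrocyte content in their differences was not tested.

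**Figure D5:**
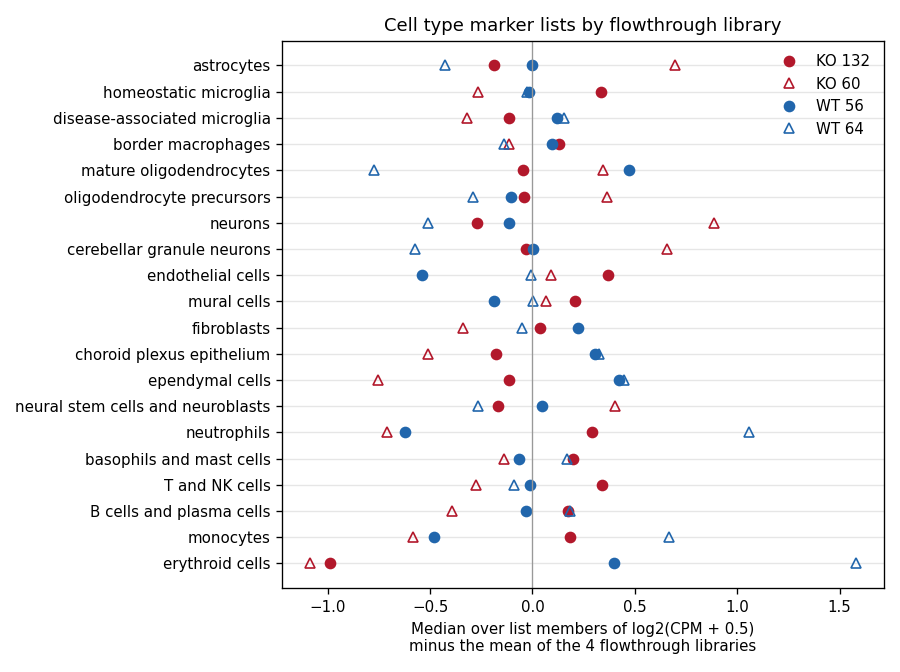
Median over the markers of each of 20 cell types of log2(CPM + 0.5) in a library minus the mean of the 4 flowthrough libraries; red marks KO and blue WT, circles mice 132 and 56, triangles mice 60 and 64. Choroid plexus, ependymal and erythroid lists lie lower in both KO libraries, while neurons and astrocytes are high in KO 60 alone.

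Of the members of the pathway lists, Cxcl5 alone passed with edgeR, and DESeq2 called 12 of 365: Cxcl5, Egfl6, Fabp7, Hebp2, Lrp4, Slc20a2, Spon2 and Wif1 higher, and Col19a1, Igfbp2, Rpe65 and Sfrp5 lower. Over all genes DESeq2 called 23 of 18008 (0.128%). The lists were chosen with earlier results of these data known, so a larger share among them is no result about the pathways. Disease-associated microglia genes had 15 of 20 below 0 and a median of -0.25, which was -0.43 without KO 132, -0.06 without WT 64 and 0.04 with the replicate block. Interferon response genes had 17 of 20 below 0, with a median of -0.42, which was -0.72 without KO 132, -0.13 without KO 60 and -0.11 with the replicate block. Rsad2, an antiviral enzyme, was at 15.9 and 13.1 CPM in KO and 25.9 and 42.5 CPM in WT (-1.24 ± 0.63), whereas Cmpk2, a mitochondrial nucleotide kinase of the same list, was at 13.2 and 31.9 CPM against 9.36 and 6.75 CPM (1.48 ± 0.39). Chaperones around BAG3 had 11 of 14 below 0 and a median of -0.21, with the small heat shock protein Hspb6 at 36.99 and 27.96 CPM in KO and 51.0 and 55.4 CPM in WT (-0.71 ± 0.25). Collagens and matrix genes had 12 of 20 above 0 and a median of 0.31, which was 0.19 without KO 60 and 0.14 without WT 64, with Col3a1 at 1.30 and 1.22 CPM against 2.79 and 2.24 CPM as one of those below 0. Ribosomal proteins had 20 of 20 above 0 and 12 groups apart, against 54.4% and 17.1% of all genes, with a median of 0.20, which was 0.10 without KO 60, 0.11 without WT 64 and 0.03 with the replicate block. Macroautophagy (0.01), lysosome (-0.05), cholesterol synthesis (0.04), nuclear oxidative phosphorylation (-0.03) and NRF2 targets (-0.02) had medians close to the 0.04 of all genes; leaving out 1 flowthrough library moved them to between -0.33 and 0.13.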

How the data were processed

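RNA of 4 flowthrough and 8 astrocyte libraries was amplified with a SMARTer kit, per the labels' protocols. Each deposited file lists 41388 genes with exon coordinates (40254 matched a symbol) and, per the file headers, a read count, a CPM and an RPKM. Whole numbers fill the deposited count column. CPM and RPKM, as deposited, are those counts over the library total, and for RPKM also over exon length, and served only for that check. Tools named in the submitters' processing notes are featureCounts 1.4.6-p5, Subread, STAR 2.5.1a and bcl2fastq, with build GRCm38; their roles, the strand setting and the treatment of multi-mapping reads were not stated, and near-identical, overlapping and antisense genes are therefore uncertain. Total counts were 38691406 to 51551942 per library.

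The test was that of edgeR 4.0.16, R 4.3.3 (quasi-likelihood, two-sided, TMM, filterByExpr by group, Benjamini-Hochberg, adjusted p under 0.05) on all 12 libraries with 4 group means, over 20997 genes with a spread pooled over the groups (8 residual degrees of freedom). Alternatives used DESeq2 1.42.0, limma-voom 3.58.1, other scalings, filters and sets of libraries. The code was tested on simulated data. Same-numbered flowthrough and astrocyte libraries come from 1 mouse; their deviations from the group means correlated at -0.01, 0.15, 0.35 and 0.25 (mice 132, 56, 60 and 64). With limma-voom, 0 flowthrough genes were called with the mouse as a block and 0 without it.

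Genes were named by rule: those called; the 12 higher and 12 lower with the smallest p, mean CPM of at least 1, groups apart and a gene symbol; clock genes; the first gene and up to 3 of the smallest p per list; the 10 of smallest p in astrocytes; CXC genes; sex-linked genes. The 43 lists (709 of 711 entries matched) and members were chosen with earlier results of these data known, and pituitary genes and genes named as highest in 1 library after their values were seen. The values of 1 clock gene are not reported here; it is counted in its list.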

Additional observations from a re-analysis of the deposited data

Results flagged for a closer look

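Mouse WT 56 stood far above the 3 other WT mice in pituitary genes of its captured astrocyte library. These genes were chosen after their values were seen, so no chance rate is given. Gh was at 11224 CPM, Prl at 213 CPM, Pomc at 340 CPM, Cga at 97.8 CPM, Fshb at 7.82 CPM, Tshb at 1.65 CPM, the factor Pou1f1 at 11.4 CPM, Ghrhr at 14.4 CPM and Gnrhr at 2.05 CPM. The flowthrough library of the same mouse was higher in each of them, with Gh at 22302 CPM, Prl at 637 CPM, Pomc at 381 CPM and Cga at 328 CPM. Over the other 10 libraries Gh did not exceed 0.284 CPM and Prl 0.018 CPM, while Pomc was at 2.93 to 6.80 CPM. Cga was at 7.67 CPM (363 counts) in the astrocyte library of KO 132 and at 0.505 CPM (28 counts) in its flowthrough library, and at 0.329 CPM or less in the other 8. The listed pituitary genes took 2.56% of the counts of WT 56 flowthrough and 1.25% of those of WT 56 astrocytes. At 5 CPM or more, 22 genes of WT 56 were over 4 times above the other 3 flowthrough libraries, with 0.5 CPM added. Such genes numbered 2 in KO 132, 5 in KO 60 and 6 in WT 64. Immunoglobulin segments were 8 of the 22 in WT 56 and 2 in each of the other 3 libraries.

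Mfsd2a, a lysolipid transporter of the blood-brain barrier, had KO minus WT estimates of opposite sign in the fractions. The log2 difference was 0.33 ± 0.22 in flowthrough, which did not pass with edgeR, and -1.21 ± 0.17 in captured astrocytes. Both KO flowthrough libraries lay above both WT ones, as in 17.1% of all genes. Mfsd2a is on the endothelial list, of which all 18 members had an estimate above 0 in flowthrough. It was at 11.48 and 10.4 CPM in KO flowthrough and 8.56 and 8.88 CPM in WT flowthrough, but at 10.8 to 15.7 CPM in KO astrocytes and 24.9 to 34.2 CPM in WT astrocytes. The difference between the fractions was 1.55 ± 0.27 on the log2 scale, which did not pass with edgeR (interaction test, adjusted p = 0.934) and was among those DESeq2 called.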

How the results depend on the processing

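The count of 1 called gene in flowthrough became 23 with DESeq2 (19 higher, 4 lower) and 0 with limma-voom, with the 4 flowthrough libraries alone, with the 8 libraries of these 4 mice, and without both libraries of WT 56, a setting chosen after seeing the data; the last 4 of these fits had 874, 1130, 1547 and 1220 genes at an unadjusted p under 0.05. With mouse as a replicate block (limma-voom, paired libraries as a random effect) it was 0, with 885 genes at an unadjusted p under 0.05, and Cxcl5 had an adjusted p of 0.0736 against 0.0897 without the block. Leaving out 1 flowthrough library gave 0 to 5 called genes: 5 without KO 132, 1 without KO 60, and 0 without WT 56 or WT 64; the lone library left was assumed to vary like the other groups. The interaction count of 0 became 8 with DESeq2 (3 higher, 5 lower) and stayed 0 with the replicate block as a random or a fixed effect. The log2 difference of Esr1 was 0.28, and -0.33 to 1.37 when 1 flowthrough library was left out, with -0.33 without WT 64. For Cxcl5, 9 of 16 alternatives passed, and its direction was kept in all 16. The median over all genes was 0.04 with TMM and -0.02 with total count scaling. With 2 libraries per label, differences near the spread between libraries were not detectable, and other depths were not tried.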
